A study of Sus scrofa with 17 samples.

Results

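Fascin (FSCN1, ENSSSCG00000007586), which binds actin filaments into tight bundles, and stathmin (STMN1, ENSSSCG00000026257), which sequesters tubulin dimers and destabilises microtubules, were followed in every kidney of the series. They are 2 of the 26560 genes in the count table, taken by their identifiers. Both were chosen from the measured values, with their lower level in the kidneys that received vesicles in both perfusions already known, so the differences between groups are given below as a description and carry no test. The biopsies came from 17 kidneys of wild type female Dutch Landrace pigs, aged from 6 months to 1 year, with 1 kidney used per animal. Every kidney had 32 min of warm ischemia, 24 h of hypothermic machine perfusion (HMP) in the cold and 5 h of normothermic machine perfusion (NMP) at body temperature, and was biopsied at the end. G1 (n = 5) received the vehicle PBS in both perfusions. G2 (n = 6) received extracellular vesicles from porcine urine progenitor cells (pUPC-EVs) during HMP only. In G3 (n = 6) the vesicles were injected in each of the perfusions. There was no unperfused kidney among them, no recipient animal and no group with vesicles in NMP alone. The questions are how much FSCN1 and STMN1 RNA the kidneys held after vesicles in HMP, and whether the level differed after the second injection.

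Actin filaments and microtubules give a tubular cell its brush border, its junctions and its polarity, and both are taken apart when a kidney is deprived of oxygen and rebuilt during repair. Fascin is typical of cells with filopodia and long protrusions, such as migrating mesenchymal cells, endothelium and mature dendritic cells, and is low in most resting epithelia. Stathmin is abundant in dividing and immature cells, and its activity is switched off by phosphorylation, by cyclin-dependent kinase 1 among others, when the spindle forms. The libraries held between 19270046 and 24736473 counts, and between 18813 and 21049 genes with at least 1 count. Markers of proximal tubule, distal nephron, podocytes, endothelium, stroma and leukocytes were all present, and none was at 0 throughout a group. The sample codes fall into 3 series, here A, B and C, whose meaning the labels do not give. Series A held 2 G1, 2 G2 and 1 G3 kidneys, series B held 2 G1 and 1 G3 kidneys, and series C held 1 G1, 4 G2 and 4 G3 kidneys.

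FSCN1 lies on chromosome 3 from 4134173 to 4143275 in RefSeq's annotation of Sscrofa11.1, and STMN1 on chromosome 6 from 83356404 to 83362546. No other annotated gene overlapped either locus. The nearest neighbours were LOC106509624, 9936 bases from FSCN1, and PAQR7, 26837 bases from STMN1. FSCN1 was read with 267 to 725 counts per kidney and STMN1 with 480 to 979. Counting alone gives a relative error of 3.71% to 6.12% for FSCN1 and of 3.20% to 4.56% for STMN1. The levels themselves ranged 3.01-fold and 2.06-fold over the 17 kidneys of all groups. Levels are CPM, the count as a share of the library total on a fixed scale, adjusted with the trimmed mean of M-values (TMM), and are not divided by transcript length, so they compare kidneys and not one gene with the other.

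FSCN1 was lowest in G3. The 6 G3 kidneys had 20.1, 17.6, 16.1, 12.2, 14.6 and 19.1 CPM. The 6 G2 kidneys had 25.8, 25.8, 29.9, 29.7, 22.6 and 25.9 CPM. The highest G3 kidney was below the lowest G2 kidney, so these groups did not overlap. The 5 G1 kidneys had 28.3, 15.9, 20.8, 36.7 and 21.4 CPM and had the widest spread of the 3 groups. Of them, 4 were above every G3 kidney, while the lowest G1 kidney was below 4 of the 6 G3 kidneys. The means were 24.6 ± 8.07 CPM in G1 (SD, n = 5), 26.6 ± 2.77 CPM in G2 (SD, n = 6) and 16.6 ± 2.93 CPM in G3 (SD, n = 6). The coefficient of variation was 32.8% in G1, 10.4% in G2 and 17.6% in G3.

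STMN1 was also lowest in G3, with more overlap. The 6 G3 kidneys had 25.5, 28.6, 30.0, 23.9, 24.0 and 24.5 CPM, a narrow range. The 6 G2 kidneys had 32.8, 26.6, 40.2, 44.2, 25.0 and 33.0 CPM. The lowest G2 kidneys fell within the G3 range, and 4 of the 6 lay above all G3 kidneys. The 5 G1 kidneys had 37.4, 28.6, 40.1, 49.2 and 32.6 CPM, of which 4 were above all G3 kidneys. The means were 37.6 ± 7.86 CPM in G1 (SD, n = 5), 33.6 ± 7.49 CPM in G2 (SD, n = 6) and 26.1 ± 2.60 CPM in G3 (SD, n = 6). The coefficient of variation was 20.9% in G1, 22.3% in G2 and 9.97% in G3. For both genes the highest kidney of the series was G1 kidney 4.

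**Figure D1:**
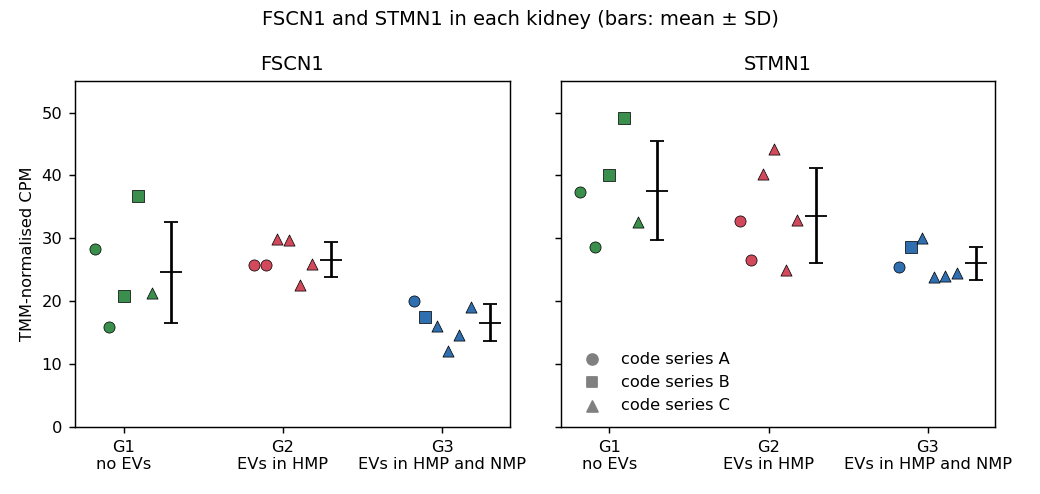
TMM-normalised CPM (vertical axis) of FSCN1 and STMN1 in each kidney of G1, G2 and G3, with marker shape for the sample code series and bars for the mean ± SD. All 6 G3 kidneys lie below all 6 G2 kidneys for FSCN1, and the G3 kidneys span 23.9 to 30.0 CPM for STMN1.

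After vesicles in both perfusions, FSCN1 was 32.8% lower than in G1, a log2 fold change of -0.57 (SE 0.185), and STMN1 was 30.9% lower, a log2 fold change of -0.53 (SE 0.133). Neither had an adjusted p under 0.05 in edgeR's quasi-likelihood test, which called 0.00778% of the 25719 genes tested. At an unadjusted p of 0.05 the test called 1.94% of genes higher and 2.79% lower in G3. Complete separation, every G3 kidney below every G1 kidney, was seen in 0.187% of genes and in neither of these 2. Both differences were smallest without G1 kidney 4, at -0.40 for FSCN1 and -0.43 for STMN1, and leaving out any other kidney left them further from 0. Within the code series the log2 difference between the means was -0.08 in A, -0.65 in B and -0.48 in C for FSCN1, and -0.36, -0.63 and -0.36 for STMN1. Each of these within-series values has 1 kidney on at least one side.

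After vesicles in HMP only, neither gene stood apart from G1. The log2 fold change was 0.11 (SE 0.179) for FSCN1 and -0.16 (SE 0.170) for STMN1, both smaller than their SE. The size of both values hung on single kidneys and on the model. The sign for FSCN1 turned when G1 kidney 2 was left out, at -0.01, and the value was 0.30 without G1 kidney 4 and 0.27 with the code series as a covariate. STMN1 was at -0.05 without G1 kidney 4, at -0.25 without G2 kidney 4 and at -0.03 with the code series as a covariate. Within the code series that hold both groups, FSCN1 differed by 0.28 in A and 0.32 in C, and STMN1 by -0.15 in A and 0.09 in C. Background in this comparison was 0% of 25699 genes at an adjusted p under 0.05 in edgeR, and 1.42% higher and 2.09% lower at an unadjusted p of 0.05. That is 901 genes unadjusted, and DESeq2 called 1 gene after adjustment.

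Between G3 and G2, which differ by the injection during NMP, FSCN1 was 37.2% lower, a log2 fold change of -0.67 (SE 0.136), and STMN1 was 22.1% lower, -0.36 (SE 0.144). In edgeR 0% of 25701 genes passed the adjusted threshold, 805 had an unadjusted p under 0.05, and the shares by direction were 1.61% higher and 1.52% lower. DESeq2 called 3 genes after adjustment, and FSCN1, which was chosen with this difference known, is one of them, from which nothing is read. Every G3 kidney was below every G2 kidney in 0.0428% of genes, 11 in all, of which FSCN1 was one and STMN1 was not. Within code series C, with 4 kidneys on each side, the log2 difference was -0.81 for FSCN1 and -0.45 for STMN1. In series A, with 1 G3 and 2 G2 kidneys, it was -0.36 and -0.21. This comparison shares its G3 kidneys with the one against G1 and its G2 kidneys with the one before, so the 3 are not independent.

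**Figure D2:**
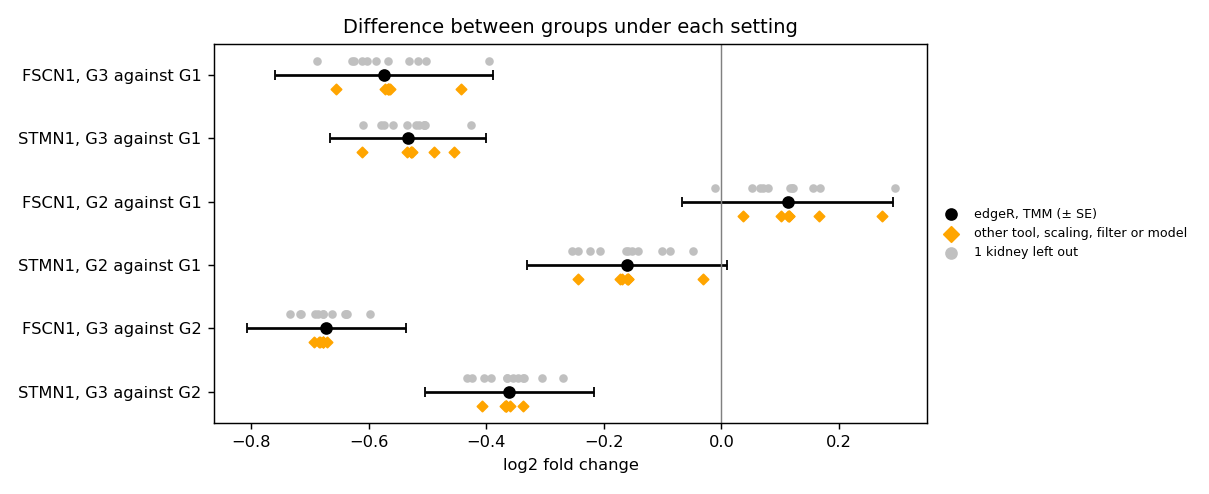
Log2 fold change (horizontal axis) of FSCN1 and STMN1 in the 3 comparisons. Black points with bars are edgeR with TMM ± SE, diamonds are another tool, scaling, filter or model, and grey points leave out 1 kidney. All values for G3 against G1 and against G2 lie below 0, and those for FSCN1 in G2 against G1 span -0.01 to 0.30.

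The balance of the 2 genes within a kidney does not depend on library scaling. FSCN1 had 0.647 ± 0.108 counts per STMN1 count in G1 (SD, n = 5), 0.810 ± 0.109 in G2 (SD, n = 6) and 0.640 ± 0.118 in G3 (SD, n = 6). The G2 kidneys ran from 0.672 to 0.971, the G1 kidneys from 0.519 to 0.758 and the G3 kidneys from 0.510 to 0.787, so all groups overlapped.

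Within groups, FSCN1 and STMN1 tended to deviate together, though not past adjustment. With each group's mean subtracted from log2 CPM, the deviations of FSCN1 and STMN1 had a Pearson r of 0.67 over the 17 kidneys (two-sided permutation p = 0.00281) and a Spearman rho of 0.66 (permutation p = 0.00693). Both were above or both below their group mean in 12 of 17 kidneys. They went opposite ways in G1 kidney 3, in G2 kidney 6 and in G3 kidneys 1, 3 and 6. Among the 19 relations computed, the Benjamini-Hochberg adjusted p of this one was 0.0534. Without the kidneys farthest from the median of FSCN1, G1 kidneys 2 and 4, r was 0.46 (permutation p = 0.0480) and rho 0.55. Removing the code series mean as well gave an r of 0.65, to which a kidney alone in its group and series adds nothing. Scaling by library size gave 0.61 and a prior count of 0.5 gave 0.67. Leaving out any 1 kidney left r between 0.55 and 0.71.

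**Figure D3:**
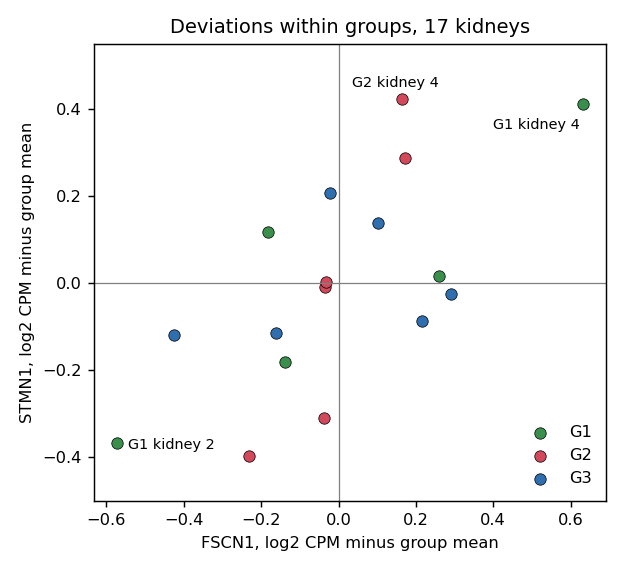
Deviation of STMN1 (vertical axis) against that of FSCN1 (horizontal axis), in log2 CPM minus the group mean, for 17 kidneys coloured by group. The points run from G1 kidney 2 at the lower left to G1 kidney 4 at the upper right, with r = 0.67 over all kidneys.

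The paralogs hold few reads. FSCN2, a fascin best known from photoreceptors and hair cells, had 37 to 150 counts per kidney, with 4.45 ± 1.53 CPM in G1 (SD, n = 5), 4.22 ± 1.96 in G2 (SD, n = 6) and 5.07 ± 1.10 in G3 (SD, n = 6). Its log2 fold change of 0.17 (SE 0.239) between G3 and G1 had the opposite sign to that of FSCN1 and was smaller than its SE. The neuronal stathmins STMN2, STMN3 and STMN4 had 0 to 4, 0 to 9 and 1 to 18 counts per kidney. STMN2 had no count in any G3 kidney, nor in 3 of 5 G1 and 3 of 6 G2 kidneys, and at this depth no fold is given for it or for STMN3. Whether reads were shared between paralogs depends on the counting, whose settings are not given in the sources used here.

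The other genes of the same machinery were read as lists chosen for what they do. Of 142 genes in 9 lists, 133 were measured, and no list gene had an adjusted p under 0.05 in any comparison in edgeR. At an unadjusted p of 0.05, 1 was higher and 4 lower in G3 than in G1, 2 higher and 0 lower in G2 than in G1, and 1 higher and 5 lower in G3 than in G2, STMN2 with its few reads among the lower ones. Over all genes the corresponding shares were 1.94% and 2.79%, 1.42% and 2.09%, and 1.61% and 1.52%. The lists' counts were near or below these shares, except for the 5 genes lower in G3 than in G2. The median log2 fold change of the 133 genes was 0.03, 0.08 and -0.05 in these comparisons, beside -0.02, -0.01 and 0.00 over all genes tested.

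Among the 13 measured actin bundlers and cross-linkers, the median was 0.05 in G3 against G1 and -0.05 in G3 against G2, and 0 genes were called in either direction even unadjusted. The smallest p against G1 belonged to espin (ESPN, a bundler of microvilli) with -0.25 (SE 0.128). In G2 against G1, L-plastin (LCP1), the actin bundler of leukocytes, had 0.50 (SE 0.131, edgeR adjusted p = 0.840). Its level was 39.6 ± 6.23 CPM in G1 (SD, n = 5) and 56.0 ± 5.53 CPM in G2 (SD, n = 6). In G3, LCP1 spread from 38.7 to 75.4 CPM. Of the 9 leukocyte markers, 5 were above 0 and 4 below in G2 against G1, with a median of 0.08. The unadjusted test called 1 of them higher, beside 1.42% of all genes. Among these markers CD14 had 7.85 ± 1.37 CPM in G1 (SD, n = 5) and 13.0 ± 2.49 CPM in G2 (SD, n = 6).

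The 31 genes of actin and its turnover had medians of 0.08, 0.10 and -0.03 in G3 against G1, G2 against G1 and G3 against G2. Thymosin beta 10 (TMSB10), which binds actin monomers, had the smallest p in both G3 comparisons, at -0.25 (SE 0.156) and -0.18 (SE 0.126). VASP, which elongates filaments, had 0.21 (SE 0.125) in G2 against G1.

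Tubulins, whose dimers stathmin sequesters, had medians of 0.06, 0.12 and -0.04 over 12 measured genes, and none was called unadjusted. TUBB6 had 0.22 (SE 0.184) in G3 against G1, TUBB2A 0.31 (SE 0.165) in G2 against G1 and TUBB3 0.38 (SE 0.440) in G3 against G2. The 23 microtubule regulators had medians of 0.04, 0.07 and -0.05. MAPRE3, which binds growing plus ends, had 0.26 (SE 0.122, edgeR adjusted p = 0.813) in G3 against G1. MAP4, which stabilises microtubules, had 0.20 (SE 0.110) in G2 against G1. The spindle factor TPX2 had -0.53 (SE 0.302) in G3 against G2. Of the 9 kinases that phosphorylate stathmin, CDK1 alone had an unadjusted p under 0.05 in either G3 comparison, and MAPK3 had the smallest p in G2 against G1, with 0.23 (SE 0.148).

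Cell cycle genes lay below 0 in G3. Of the 20 measured, 18 had a log2 fold change below 0 against G1 and 19 against G2, with medians of -0.33 in both. Against G1 the unadjusted test called 4 of 20 lower, beside 2.79% of all genes, and against G2 also 4 of 20, beside 1.52% of all genes. The 4 against G1 were all the list genes called lower there, and their number hung on single kidneys. Over all lists it was 1 without G1 kidney 3, 2 without G1 kidney 1 and 7 without G3 kidney 1. Against G2 the number over all lists was 5, and 3 to 7 with 1 kidney left out. How many of all genes were called was not counted in the fits without 1 kidney. A change in the lists therefore cannot be told from a change over all genes. In G2 against G1 the median was 0.09 and none was called, and CCNA2, with the smallest p, had -0.44 (SE 0.412). CDK1, the mitotic kinase that phosphorylates stathmin, had 1.36 ± 0.629 CPM in G1 (SD, n = 5), 1.44 ± 0.608 in G2 (SD, n = 6) and 0.587 ± 0.230 in G3 (SD, n = 6). Its log2 fold change was -1.21 (SE 0.377) in G3 against G1 and -1.28 (SE 0.373) in G3 against G2, with edgeR adjusted p of 0.813 and 0.948. It rests on few reads, on average 29.4 counts per kidney in G1 and 13.2 in G3, and the groups overlapped, since the highest G3 kidney at 0.925 CPM was above the lowest G1 kidney at 0.826 CPM.

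The other cell cycle genes called unadjusted are named here after their values were seen. Cyclin B1 (CCNB1) had -1.20 (SE 0.454) against G1 and -1.13 (SE 0.519) against G2. The ubiquitin-conjugating enzyme UBE2C had -0.90 (SE 0.418) and -1.15 (SE 0.397). Cyclin A2 (CCNA2) had -0.95 (SE 0.420) against G1, and thymidine kinase (TK1) had -0.53 (SE 0.241) against G2. Within groups, the deviations of STMN1 and of the cell cycle list's mean log2 CPM had an r of 0.14 (permutation p = 0.671, rho 0.16). Those of FSCN1 had an r of 0.06 (permutation p = 0.829, rho 0.12). Without G1 kidney 4 and G2 kidney 4, r was 0.31 for STMN1 (permutation p = 0.383). Without G1 kidneys 2 and 4 it was 0.32 for FSCN1 (permutation p = 0.231). Injured tubule genes had medians of 0.03, 0.03 and -0.16 over 11 measured genes. SOX9, a factor of regenerating tubule cells, had -0.50 (SE 0.273) in G3 against G1. Vimentin (VIM), an intermediate filament of mesenchyme and of dedifferentiated tubules, had 0.15 (SE 0.186) in G3 against G1, 0.52 (SE 0.202) in G2 against G1 and -0.36 (SE 0.211) in G3 against G2.

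**Figure D4:**
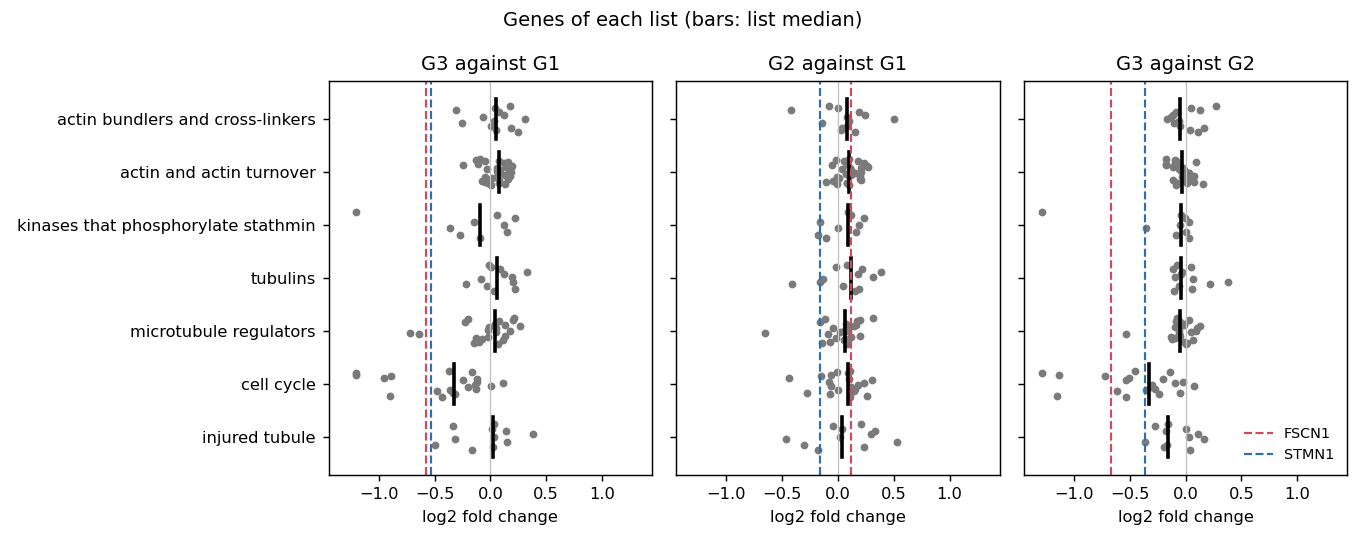
Log2 fold change (horizontal axis) of each measured gene in 7 cytoskeleton, cell cycle and injury lists, in 3 comparisons, with a black bar at the list median and dashed lines at FSCN1 and STMN1. The cell cycle median is at -0.33 in both G3 comparisons and the injured tubule median at -0.16 in G3 against G2; stathmin paralogs are left out for their low counts and another list is not shown.

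A biopsy holds many cell types, and in bulk RNA fewer cells of a type and less RNA per cell cannot be told apart. In G3 against G2, 6 of the 7 marker lists had a median below 0. Of the distal nephron markers 6 of 7 measured were below 0, with a median of -0.10, and of the proximal tubule markers 6 of 8, with a median of -0.05. Stroma markers were below 0 in 8 of 10 and podocyte markers in 5 of 6. All 10 stroma markers were measured and none was at 0 in a kidney. Their summed level ran from 544 to 941 CPM in G1, 650.0 to 1220 CPM in G2 and 472 to 950.1 CPM in G3. Of them, COL3A1 had -0.97 (SE 0.263), COL1A2 -0.75 (SE 0.240) and COL1A1 -0.63 (SE 0.208) in G3 against G2, each with an edgeR adjusted p of 0.948, and the list median was -0.18. In G2 against G1 all 10 stroma markers were above 0, with a median of 0.32. Of 7 podocyte markers, 6 were measured, with summed levels of 230 to 316 CPM in G1, 258 to 398 CPM in G2 and 233 to 308 CPM in G3. Their median log2 fold change was -0.17 against G1 and -0.27 against G2. The part of these compartments in the FSCN1 and STMN1 differences was not tested.

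Of the 8 measured endothelial markers, 6 were above 0 in G3 against G1, with a median of 0.14 and 0.31 (SE 0.135) for PECAM1, the adhesion molecule of endothelial junctions, and 5 were below 0 in G3 against G2, with a median of -0.05. In G3 against G1 the stroma markers were likewise mostly above 0, 6 of 10 with a median of 0.09, but the 3 collagens were below 0 there too, at -0.40 (SE 0.203) for COL1A1, -0.34 (SE 0.229) for COL1A2 and -0.34 (SE 0.245) for COL3A1. The summed level of the endothelial markers ran from 733 to 886 CPM in G1, 621 to 1152 CPM in G2 and 632 to 1125 CPM in G3. Of the 4 mature dendritic cell markers, 3 were measured, with summed levels of 110 to 132 CPM in G1, 88.9 to 135 CPM in G2 and 98.2 to 166 CPM in G3. Their median log2 fold change was -0.01 in G3 against G1, -0.13 in G2 against G1 and 0.14 in G3 against G2. Leukocyte markers summed to 106 to 140 CPM in G1, 105 to 182 CPM in G2 and 120 to 144 CPM in G3, with MS4A1, a B cell marker, at 0 in at least 1 kidney.

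Between kidneys of the same group, no list score followed FSCN1 or STMN1 past adjustment. STMN1 went with the podocyte score at r = 0.64 (permutation p = 0.0297, adjusted p = 0.282, rho 0.50), and without G1 kidney 4 and G2 kidney 4 at r = 0.43 (permutation p = 0.218). FSCN1 went with the injured tubule score at r = 0.44 (permutation p = 0.0621, adjusted p = 0.393, rho 0.45), and without G1 kidneys 2 and 4 at r = 0.57 (permutation p = 0.0410). With the stroma score r was 0.28 for FSCN1 (permutation p = 0.313, rho 0.13) and 0.27 for STMN1 (permutation p = 0.299, rho 0.21). Without the same kidneys left out above for each gene, r was 0.01 for FSCN1 (permutation p = 0.988) and 0.33 for STMN1 (permutation p = 0.241). With the mature dendritic cell score r was -0.03 for FSCN1 (permutation p = 0.935, rho 0.10). The sign turned without G1 kidneys 2 and 4, at r = 0.44 (permutation p = 0.103, rho 0.31).

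**Figure D5:**
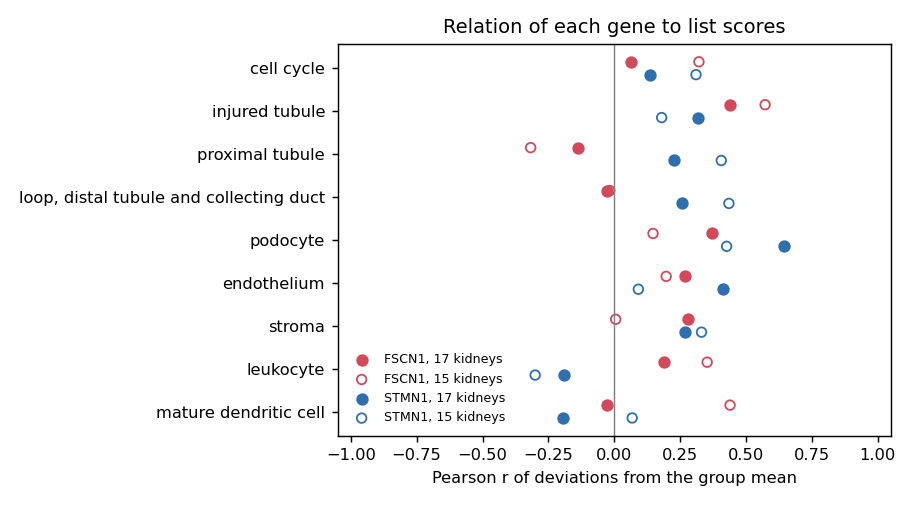
Pearson r (horizontal axis) between the within-group deviations of FSCN1 or STMN1 and those of 9 list scores, over 17 kidneys (filled) and over 15 kidneys without the pair farthest from the member's median (open). The highest r is 0.64 for STMN1 with the podocyte score, and it is 0.43 over 15 kidneys.

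The genes most like each member over the 17 kidneys were ranked by Pearson r of log2 CPM, with group differences left in. FABP5, an intracellular fatty acid carrier, was the closest to both, at r = 0.76 with FSCN1 and 0.81 with STMN1. Its own log2 fold changes were -0.55 in G3 against G1, 0.03 in G2 against G1 and -0.57 in G3 against G2. The next closest to FSCN1 were STMN1 (r = 0.76), FABP4, the fatty acid carrier of adipocytes and capillary endothelium (0.75), PEX5L (0.75) and the ether lipid enzyme GNPAT (0.74). FABP4 had -0.89 in G3 against G1 and 0.12 in G2 against G1. Next closest to STMN1 were EXTL2 (0.78), the mitochondrial branched-chain aminotransferase BCAT2 (0.78), the pyruvate dehydrogenase kinase PDK1 (0.78) and ENHO (0.78). FSCN1 was the 7th closest to STMN1. These correlations were ranked over all genes with a symbol and a mean of at least 1 CPM, share the same 17 libraries, and are descriptions only.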

How the data were processed

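Polyadenylated RNA from 17 kidney biopsies was sequenced with a stranded Illumina kit. The authors trimmed reads with cutadapt 4.0, aligned them with STAR to Sscrofa11.1 and deposited raw counts per Ensembl gene, which were used as deposited. The counting program and its strand setting are not given in the sources used here. The authors' table of DESeq2 fold changes and p-values was not used. Groups came from the sample labels. Each pair of groups was fitted with edgeR 4.0.16 (quasi-likelihood test, TMM, R 4.3.3) over genes with at least 1 count, with Benjamini-Hochberg adjustment over all of them, and DESeq2 1.42.0 as an alternative. Other alternatives were RLE or library size scaling, filterByExpr, all groups in 1 fit, code series as covariate, a replicate block and leaving out each kidney. CPM for correlations used a prior count of 2, and correlations were tested with 100000 permutations within groups (scipy 1.17.1). The fits were also run on simulated data, of which no outcome is given here and on which no result rests. Symbols came from an Ensembl table, which named 15093 of 26560 genes.

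The genes and lists were chosen with earlier results of these data known. Named genes were FSCN1, STMN1, their paralogs, the gene with the smallest p per list and comparison, genes past the adjusted p, markers at 0 in a group, and the 5 genes most correlated with each member. Outside this rule, CCNB1, UBE2C and TK1 were named after their values were seen, and COL1A2 and MS4A1 were named as well. Some named genes and 1 list are not reported here, although the counts over all lists include them. Intervals of counts cover counting error only. The authors used 1 kidney per animal. Depth differed somewhat by group, with median totals of 20694719 counts in G1, 21838757 in G2 and 23147186.5 in G3, and the ranges of the groups overlapped.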

Additional observations from a re-analysis of the deposited data

How the results depend on the processing

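FSCN1 and STMN1 kept their direction in each comparison under all 7 alternatives other than leaving out single kidneys. The replicate block used only kidneys whose number occurs in both groups. Against G1 it therefore held neither G2 kidney 6 nor G3 kidney 6. With the replicate block the log2 fold changes were -0.56, 0.17 and -0.68 for FSCN1 and -0.49, -0.17 and -0.34 for STMN1 (G3 against G1, G2 against G1, G3 against G2); numbers did not pair kidneys, as 1 of 5, 0 of 5 and 2 of 6 same-numbered pairs had a correlation above 0.1. DESeq2 placed FSCN1 past the adjusted threshold in G3 against G2 and edgeR did not; as the gene was chosen with this difference known, neither is a test of it. DESeq2 called 31 genes in G3 against G1, where edgeR called 2. List genes higher in G3 than in G1 at an unadjusted p numbered 1. There were 0 with library size only, all groups in 1 fit or the code series, where 1.18%, 1.82% and 2.03% of all genes were higher. With the replicate block there were 2, beside 2.07% of all genes. List genes lower numbered 4, or 11 with library size only and 8 with the replicate block, where 4.10% and 2.31% of all genes were lower. In G2 against G1, DESeq2 called 5 higher in place of 2 (1.28% of all genes). The replicate block and the code series each called 1 lower in place of 0 (1.40% and 2.71% of all genes). In G3 against G2 the 1 higher was lost with library size only, the replicate block and the code series (0), where 1.32%, 1.16% and 1.73% of all genes were higher. The 5 lower became 3 with filterByExpr (1.27% of all genes) and with the replicate block (0.953%). Without 1 kidney these counts ranged 0 to 3 higher and 1 to 7 lower, 1 to 7 and 0 to 1, and 0 to 1 and 3 to 7. The shares over all genes were not counted in those fits, so nothing about the lists is read from these ranges. With the code series removed, r was 0.69 for FSCN1 with the injured tubule score (permutation p = 0.0155) and 0.63 for STMN1 with the podocyte score (permutation p = 0.142). The G1 kidney of series C and the G3 kidneys of series A and B are alone in their group and series. They have no deviation left there, so these r rest on fewer kidneys, and their p were not adjusted. With library size only, r of FSCN1 with the proximal tubule score was -0.57 (permutation p = 0.0166). The causes were not tested. Code series and group are unevenly mixed, with no G2 kidney in B. With 5 or 6 kidneys a group, cell cycle genes near 1 CPM give wide errors.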

Other observations

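Outlying kidneys were looked for in 36 sets of values of 5 or 6 kidneys with Dixon's ratio at its 95% limit, where about 1 in 20 sets (1.8 of 36) is found by chance, and 0 were found.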
